A study of Mus musculus with 9 samples.

Results

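The comparison described here is the interaction of genotype and drug: the log2 difference between ifetroban and vehicle in the knockout minus the same difference in the wild type. All 9 of the 9 libraries of the study entered it. They are counts of polyadenylated RNA from mouse left ventricle in 4 groups: wild type (WT) given vehicle (n = 2), WT given ifetroban (n = 2), dSG knockout (KO) given vehicle (n = 2) and dSG knockout given ifetroban (n = 3). dSG is the usual short name of delta-sarcoglycan, the product of Sgcd. Dose, duration, age, sex and strain were not given in the sources used here, nor were the deleted exons, and whether each library is a different animal is not stated, so a p-value here weighs only library-to-library spread, part of which may be technical. In whole ventricle, fewer cells of a type and less RNA per cell cannot be told apart.

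Delta-sarcoglycan is one of the sarcoglycans of the dystrophin-glycoprotein complex, which links the cytoskeleton of muscle cells to the matrix, and its loss damages the membrane and leads to fibrosis and cardiomyopathy in mice. Ifetroban blocks the thromboxane-prostanoid receptor, encoded by Tbxa2r, which couples to phospholipase C and RhoA and raises calcium, contraction and growth signals. The interaction asks whether the drug was followed by a different change in the diseased ventricle than in the healthy one. A negative value means that the estimate for the drug was lower in KO than in WT, and a positive value that it was higher.

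The depth was 21299748 to 31394548 reads in genes. On the first principal component, with 47.5% of the variance, KO vehicle replicate 1 stood farthest from 0 (84.4), KO ifetroban replicate 1 was at 34.2, and the other 7 libraries lay between -38.2 and 2.02. Transcript length also separated the libraries: longer transcripts had lower levels in both KO vehicle libraries, in KO ifetroban replicate 1 and in the library labelled WT vehicle replicate 1 (Spearman correlation across genes -0.290 to -0.417), and higher levels in the other 5 (0.302 to 0.386). No interaction can be computed within either class, because both KO vehicle libraries fall in the former and both WT ifetroban libraries in the latter, and a fit with a term for the class is given instead. Sgcd was at 11.1 and 28.9 CPM (reads scaled to a common library size) in WT vehicle, 33.1 and 31.2 in WT ifetroban, 7.49 and 12.1 in KO vehicle and 9.77, 16.4 and 18.5 in KO ifetroban. The 11.1 CPM of the library labelled WT vehicle replicate 1 falls among the KO values, so this gene goes against the label. Matrix genes summed to 3032 CPM there and to 4885 or more in each KO library, and myofibroblast genes to 238.5 against 487.5 or more. Calcium handling genes, at 29948 CPM, lay among the KO sums (18212 to 31219). Sgcd also followed the length class: it was at 7.49 to 12.1 CPM where longer transcripts were lower. In the other class it was at 16.4 and 18.5 in KO and 28.9 to 33.1 in WT. Whether the label or the length class lies behind the 11.1 was not tested. The library so labelled enters every interaction below. The interaction of Sgcd itself was -0.07 ± 0.585 (log2, SE), and 0.47 with that library left out.

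No gene passed the test of the interaction. Of 15261 genes, 0 (0%) had an adjusted p under 0.05 in edgeR's quasi-likelihood test with Benjamini-Hochberg adjustment, and the smallest adjusted p was 0.9998. DESeq2 and limma-voom also called 0. At an unadjusted p under 0.05 edgeR had 211 genes (1.38%), 113 positive (0.74%) and 98 negative (0.642%), where 763 would be expected by chance; DESeq2 had 167. The drug effects that the interaction compares were not called either: 0 genes (0%) in KO, with 766 (5.02%) at an unadjusted p under 0.05, 2.59% higher and 2.42% lower, and 0 (0%) in WT, with 192 (1.26%), 0.315% higher and 0.944% lower. Estimates were positive for 47.6% and negative for 52.4% of genes in KO, and positive for 47.2% and negative for 52.8% in WT. DESeq2 called 3 genes for ifetroban in KO. They were Thbs4, Ucp3 and Pfkfb1.

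The precision limits what a count of 0 can show. The median SE was 0.367 for the interaction, 0.247 for ifetroban in KO and 0.272 for ifetroban in WT, all on the log2 scale. The median half-width of the 95% confidence interval of the interaction was 0.823, and 7078 genes (46.4%) had an interval that lay within 1 log2 unit of 0 on both sides. For the remaining genes, a 2-fold difference between genotypes in the drug effect was not excluded by the interval. The estimate was at least 1 in size for 992 genes and at least 2 for 167. The mean variance of a library around its group was 0.327 for KO vehicle and 0.189 for WT vehicle, against 0.139 for KO ifetroban and 0.10 for WT ifetroban, in squared log2 CPM, so the vehicle groups, above all KO vehicle, carried most of the spread.

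Genes with a small p shared a crossed pattern. Of the 98 negative genes at an unadjusted p under 0.05, 97 had lower estimates under ifetroban in KO and higher ones in WT. Of the 113 positive genes, 105 had the opposite arrangement. A small p for a difference favours such genes by construction, so these counts describe the genes and support nothing. The drug effects had opposite signs for 202 of the 211, and for 32.9% of all tested genes. The larger part of the difference lay in KO for 53 of the 98 negative and 69 of the 113 positive genes. These genes were chosen by the same p, so this too is only a description. Over all 15261 genes, 96 (0.629%) had every KO ifetroban library below both KO vehicle libraries and both WT ifetroban libraries above both WT vehicle libraries, and 123 (0.806%) had the reverse.

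**Figure D1:**
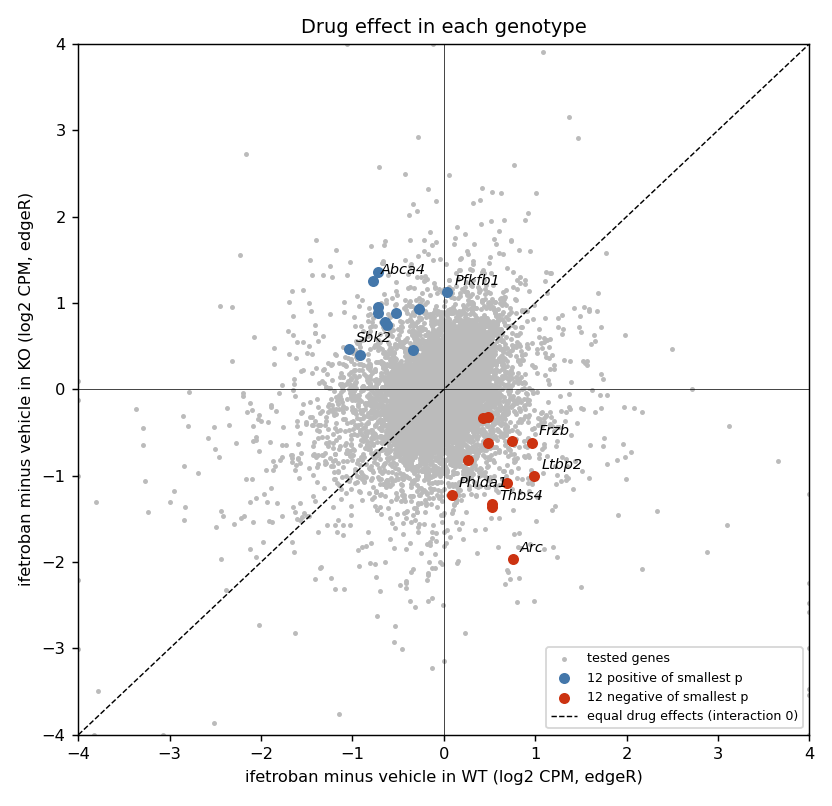
Log2 difference between ifetroban and vehicle in WT (horizontal) and in KO (vertical) for each of the 15261 tested genes (grey; values beyond 4 are drawn at the edge), from edgeR. The dashed line marks equal drug effects; the 12 negative genes of smallest p (red) lie below and to the right of it and the 12 positive ones (blue) above and to the left, none of them past the adjusted threshold.

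The 4 genes with the smallest p were all negative: Thbs4, Frzb, Ltbp2 and Dio2. Their promoters, 250 bases before to 50 after the RefSeq start (GRCm38.p6), are shown because these genes have the smallest p of the comparison. All 4 lie on the minus strand and are written 5′ to 3′ in the direction of transcription. Thbs4 is at chr13:92794769-92795068, Frzb at chr2:80447347-80447646, Ltbp2 at chr12:84876442-84876741 and Dio2 at chr12:90738989-90739288. For Dio2 the RefSeq start lies upstream of the gene's end in GENCODE M21, the source of the gene positions given here. Capitals mark matches on either strand to 4 motifs chosen after the sequences were seen: the cyclic AMP response element TGACGTCA, the AP-1 site TGANTCA, the TEAD site GGAATG and the TATA box TATAAA.
Thbs4: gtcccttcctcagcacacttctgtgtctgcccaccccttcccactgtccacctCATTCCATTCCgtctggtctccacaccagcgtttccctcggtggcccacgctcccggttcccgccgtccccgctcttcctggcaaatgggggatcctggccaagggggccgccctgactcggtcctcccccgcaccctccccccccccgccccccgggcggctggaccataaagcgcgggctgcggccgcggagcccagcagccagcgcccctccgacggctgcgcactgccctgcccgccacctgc
Frzb: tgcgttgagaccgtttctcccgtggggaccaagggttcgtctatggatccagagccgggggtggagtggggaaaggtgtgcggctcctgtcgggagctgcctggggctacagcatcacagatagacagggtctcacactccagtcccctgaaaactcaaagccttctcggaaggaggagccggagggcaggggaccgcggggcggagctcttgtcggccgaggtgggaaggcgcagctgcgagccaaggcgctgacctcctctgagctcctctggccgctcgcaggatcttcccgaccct
Ltbp2: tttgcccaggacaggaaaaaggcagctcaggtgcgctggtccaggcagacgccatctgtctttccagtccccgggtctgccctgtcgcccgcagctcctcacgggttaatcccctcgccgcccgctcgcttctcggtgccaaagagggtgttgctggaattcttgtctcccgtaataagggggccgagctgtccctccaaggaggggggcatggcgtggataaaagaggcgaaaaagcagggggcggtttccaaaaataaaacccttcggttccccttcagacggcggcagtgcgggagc
Dio2: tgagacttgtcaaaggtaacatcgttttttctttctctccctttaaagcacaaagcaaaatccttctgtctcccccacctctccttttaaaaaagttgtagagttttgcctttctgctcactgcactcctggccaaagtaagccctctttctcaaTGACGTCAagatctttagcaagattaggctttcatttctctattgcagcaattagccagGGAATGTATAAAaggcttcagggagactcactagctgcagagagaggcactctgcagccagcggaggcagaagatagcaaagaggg
Thbs4 held 2 TEAD matches, on the reverse strand and sharing 1 base. Dio2 held 1 cyclic AMP response element, 1 TEAD match and 1 TATA match, the last 2 adjoining without overlap. No match to these letters was found in the windows of Frzb and Ltbp2. Of all 32851 RefSeq promoters of this length, 1.79% held the cyclic AMP response element, 7.81% the AP-1 site, 14.7% the TEAD site and 13.6% the TATA box. A match describes the sequence and is not a measured binding site.

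Thbs4 (ENSMUSG00000021702, chromosome 13, 92751590 to 92794818) encodes thrombospondin-4, a matricellular protein of stressed heart and tendon. It was at 6.26 and 5.14 CPM in WT vehicle, 7.98 and 8.48 in WT ifetroban, 61.6 and 33.8 in KO vehicle, and 20.7, 18.9 and 15.9 in KO ifetroban. Every KO ifetroban library lay below both KO vehicle libraries, and both WT ifetroban libraries lay above both WT vehicle libraries. The interaction was -1.90 ± 0.375 (log2, SE; 95% interval -2.74 to -1.06; edgeR unadjusted p = 0.00055, adjusted p = 0.9998; DESeq2 adjusted p = 0.0687), made up of -1.36 in KO and 0.53 in WT. It was -1.40 with KO vehicle replicate 1 left out, -2.26 with KO vehicle replicate 2 left out and -1.86 with the class term. KO minus WT was 3.06 on vehicle and 1.17 on ifetroban for Thbs4; the former shares the vehicle libraries with the interaction, so the values are given side by side only.

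Frzb (ENSMUSG00000027004, chromosome 2, 80411970 to 80447625) encodes a secreted antagonist of Wnt signalling. It was at 3.64 and 3.55 CPM in WT vehicle, 7.94 and 6.10 in WT ifetroban, 17.1 and 13.9 in KO vehicle, and 9.96, 8.62 and 11.7 in KO ifetroban. The groups did not overlap in either genotype, and the WT part (0.96) was larger than the KO part (-0.62). The interaction was -1.58 ± 0.315 (unadjusted p = 0.000579, edgeR; adjusted p = 0.9998) and lay between -1.75 and -1.38 over the 21 alternative settings.

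Ltbp2 (ENSMUSG00000002020, chromosome 12, 84783212 to 84876532) encodes a latent TGF-beta binding protein of microfibrils. Its levels were 2.87 and 5.56 CPM in WT vehicle, 8.71 and 8.20 in WT ifetroban, 54.1 and 45.2 in KO vehicle, and 21, 17.7 and 35.3 in KO ifetroban. Again the groups did not overlap in either genotype, and KO ifetroban stayed above every WT library. The interaction was -2.00 ± 0.486, from -1.01 in KO and 0.99 in WT. Without the library labelled WT vehicle replicate 1, which held the lowest value, it was -1.59.

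Dio2 (ENSMUSG00000007682, chromosome 12, 90724552 to 90738438) encodes the deiodinase that converts thyroxine to active thyroid hormone. It was at 1.69 and 1.39 CPM in WT vehicle, 1.57 and 2.85 in WT ifetroban, 11.5 and 10.2 in KO vehicle, and 3.41, 4.14 and 5.39 in KO ifetroban. The KO groups were apart, while WT ifetroban overlapped WT vehicle. The interaction was -1.85 ± 0.458, with -1.33 in KO and 0.52 in WT.

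**Figure D2:**
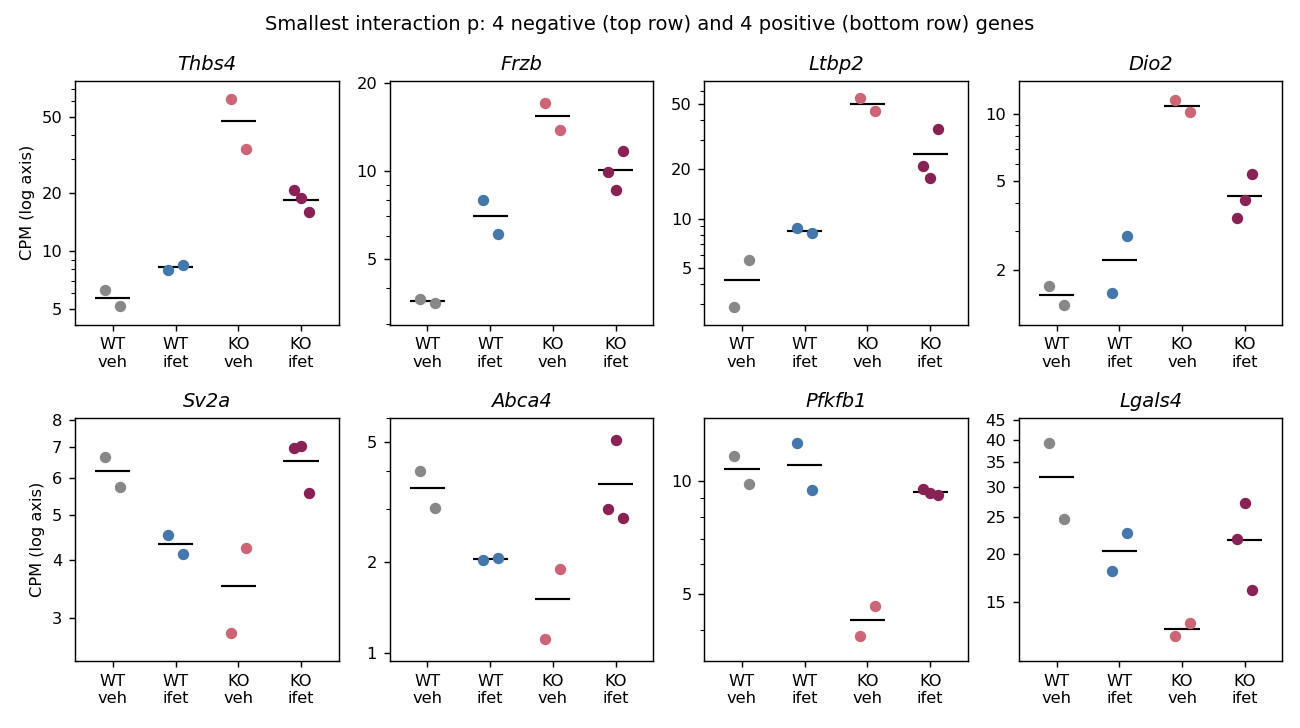
CPM on a log axis in each of the 9 libraries (points) with the group mean (line) for the 4 negative and the 4 positive genes of smallest interaction p. The negative genes are highest in KO vehicle and the positive genes lowest there, for example Thbs4 at 61.6 and 33.8 CPM and Pfkfb1 at 3.86 and 4.65 CPM.

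The other 8 negative genes of smallest p had interactions between -2.72 and -0.76. Arc, an activity-regulated gene that follows serum response factor, was at 2.57 and 2.32 CPM in WT vehicle, 2.76 and 5.47 in WT ifetroban, 15.7 and 3.61 in KO vehicle, and 2.99, 2.02 and 2.40 in KO ifetroban. Its value of -2.72 ± 0.798 was -1.31 without KO vehicle replicate 1, which held the 15.7. Phlda1, a growth factor-induced gene, was at -1.30 ± 0.448 and at -0.72 without the same library. Edn3, which encodes the peptide endothelin-3, was at 3.64 and 1.47 CPM in WT vehicle, 3.76 and 4.40 in WT ifetroban, 4.19 and 6.63 in KO vehicle, and 2.48, 1.90 and 3.30 in KO ifetroban. No library of one treatment overlapped the other within either genotype for Edn3, and its interaction was -1.77 ± 0.594. Uchl1, a ubiquitin hydrolase, was at -1.08 ± 0.364. The remaining members were Nrm (-1.35), Hspa2 (-0.76), Samd14 (-1.10) and Mcm6 (-0.81), the last a subunit of the replicative helicase. Samd14 was at -0.53 when reads were counted without regard to strand.

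The 4 positive genes of smallest p had their lowest group mean in KO vehicle. Sv2a (ENSMUSG00000038486, chromosome 3, 96181151 to 96195521), which encodes a vesicle glycoprotein, was at 6.67 and 5.76 CPM in WT vehicle, 4.53 and 4.12 in WT ifetroban, 2.79 and 4.25 in KO vehicle, and 6.97, 7.02 and 5.58 in KO ifetroban. The groups were apart in both genotypes, in opposite directions. The interaction was 1.41 ± 0.363 (edgeR unadjusted p = 0.00328, adjusted p = 0.9998), made up of 0.89 in KO and -0.52 in WT. Abca4 (ENSMUSG00000028125, chromosome 3, 122044443 to 122180123), which encodes a retinoid transporter, was at 4 and 3.01 CPM in WT vehicle, 2.03 and 2.06 in WT ifetroban, 1.12 and 1.91 in KO vehicle, and 2.99, 5.06 and 2.79 in KO ifetroban. It showed the same arrangement, with an interaction of 2.03 ± 0.534.

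Pfkfb1 (ENSMUSG00000025271, chromosome X, 150588229 to 150643878) encodes a kinase and phosphatase that sets the level of fructose 2,6-bisphosphate, a regulator of glycolysis. It was at 11.7 and 9.78 CPM in WT vehicle, 12.6 and 9.43 in WT ifetroban, 3.86 and 4.65 in KO vehicle, and 9.49, 9.26 and 9.15 in KO ifetroban. Nearly all of the difference lay in KO (1.13), since the WT groups overlapped (0.04), and the interaction was 1.09 ± 0.297. Lgals4 (ENSMUSG00000053964, chromosome 7, 28833854 to 28841708), which encodes galectin-4, was at 39.2 and 24.7 CPM in WT vehicle, 18.1 and 22.8 in WT ifetroban, 12.2 and 13.2 in KO vehicle, and 21.9, 27.3 and 16.1 in KO ifetroban. The groups did not overlap in either genotype, and the interaction was 1.42 ± 0.391.

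Adra1b, an alpha-1 adrenergic receptor that couples to phospholipase C as the thromboxane receptor does, was at 41.2 and 44.8 CPM in WT vehicle, 32.3 and 38.8 in WT ifetroban, 17.3 and 23.3 in KO vehicle, and 40.1, 49.6 and 26.6 in KO ifetroban. All KO ifetroban values lay above KO vehicle and all WT ifetroban values below WT vehicle, giving 1.2 ± 0.377. H19, an imprinted noncoding RNA, was at 1.60 ± 0.518, and Aqp4, a water channel, at 2.09 ± 0.622. The remaining positive genes were Zfand4 (1.37), Snhg14 (1.31), Sbk2 (1.5), Pirt (1.68) and Eepd1 (0.79). Leaving out the library labelled WT vehicle replicate 1 gave 0.87 for Pirt. Among the 24 genes, 9 of the 12 negative and 7 of the 12 positive ones had no overlap between treatments in either genotype. Over all tested genes, 0.629% were apart in the crossed pattern of the negative genes and 0.806% in that of the positive ones. The 24 genes were chosen by the test itself, so this is a description.

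Matrix genes had negative interactions together. Of 45 genes of the extracellular matrix, 43 had a negative estimate, where 46.3% of all genes did, and the median was -0.48 against 0.03 over all genes. The list median for ifetroban was -0.48 in KO and 0.23 in WT. 7 members had a negative value at an unadjusted p under 0.05 and 0 were called. The fibrillar collagens had small values that intervals did not separate from 0: Col1a1 was at -0.31 ± 0.293 (interval -0.97 to 0.34) and Col3a1 at -0.29 ± 0.368 (-1.11 to 0.53). The members with the smallest p were Thbs4, Ltbp2 and Cthrc1. Leaving out KO vehicle replicate 1 gave a median of -0.36 and leaving out KO vehicle replicate 2 one of -0.54. It was -0.34 and -0.77 without the library labelled WT vehicle replicate 1 and WT vehicle replicate 2, and -0.62 with the class term.

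Myofibroblast genes, which mark activated fibroblasts, had a median of -0.97. Of 15 members, 13 were negative and 6 of those had an edgeR unadjusted p under 0.05. Over all genes 46.3% were negative and 53.7% positive, 0.642% and 0.74% at that threshold. These shares stand beside the counts of all lists below. Thbs4, Ltbp2 and Cthrc1 are members of both this list and the matrix list, so the lists are not independent. Cthrc1, a secreted protein of activated fibroblasts, was at 0.0513 and 0.116 CPM in WT vehicle, 0.345 and 0.198 in WT ifetroban, 1.72 and 3.65 in KO vehicle, and 1.5, 1.41 and 1.05 in KO ifetroban. Treatments did not overlap in either genotype, but the WT values rest on 1 and 3 reads in vehicle and 9 and 5 in ifetroban, and the interaction was -2.62 ± 0.856. Postn, which encodes periostin, was at 40.3 and 37.9 CPM in WT vehicle, 61.1 and 41.4 in WT ifetroban, 138 and 295 in KO vehicle, and 84.3, 111 and 149 in KO ifetroban. KO ifetroban overlapped KO vehicle for Postn, and its interaction of -1.31 ± 0.494 was -0.65 without KO vehicle replicate 2. The list median was -0.41 without KO vehicle replicate 1. Fibroblast identity genes had a median of the same sign and smaller size, -0.29, with 17 of 17 negative. None had an edgeR unadjusted p under 0.05, and the median of these genes was -0.0049 without KO vehicle replicate 2. Mgp, an inhibitor of calcification, had the smallest p of these (-0.62 ± 0.285, and -0.39 without WT vehicle replicate 2).

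Genes of TGF-beta signalling had a median of -0.30 (19 of 26 negative), led by Gdf15 and Ltbp2, and of 0.01 without KO vehicle replicate 1. Matrix proteases and inhibitors had a median of -0.35 (18 of 26 negative) and of 0.14 without that library. Timp1, a protease inhibitor, was at 3.18 and 1.35 CPM in WT vehicle, 3.07 and 0.911 in WT ifetroban, 337 and 10.1 in KO vehicle, and 96.8, 31.9 and 21.2 in KO ifetroban. The spread within KO vehicle exceeded the distance between the KO groups, and the interaction of -1.65 ± 1.80 was 2.45 when KO vehicle replicate 1 was left out. Ccn2, formerly connective tissue growth factor, showed the same dependence: 842 and 139 CPM in KO vehicle against 202, 161 and 144 in KO ifetroban, with -1.67 ± 0.813 overall and 0.15 without the first of those libraries.

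Fetal and hypertrophy genes had a median of -0.85, with 15 of 17 negative and 4 of those at an unadjusted p under 0.05. Leaving out KO vehicle replicate 1 gave a median of -0.08, and leaving out KO vehicle replicate 2 gave -1.20. Nppa, which encodes atrial natriuretic peptide, depended less on 1 library than Nppb, Ankrd1 or Gdf15. It was at 230 and 209 CPM in WT vehicle, 208 and 279 in WT ifetroban, 1278 and 923 in KO vehicle, and 759, 379 and 363 in KO ifetroban. All KO ifetroban values lay below KO vehicle and the WT groups overlapped, with an interaction of -1.29 ± 0.470 (interval -2.34 to -0.24) and of -1.04 without KO vehicle replicate 1. Nppb, the brain natriuretic peptide gene, was at 2081 and 531 CPM in KO vehicle and 670, 519 and 372 in KO ifetroban. These groups overlapped, and -1.19 ± 0.724 became 0.11 without KO vehicle replicate 1. Ankrd1, a stretch-responsive repressor in myocytes, was at -0.85 ± 0.436 and at -0.19 without that library. Gdf15, a stress-induced cytokine, was at 69.6 and 5.12 CPM in KO vehicle and 4.21, 5.52 and 2.17 in KO ifetroban, so its value of -3.09 ± 1.34 was -0.23 without it.

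Myh7, the slow myosin heavy chain of the fetal ventricle, leaned on the other KO vehicle library. It was at 172 and 140 CPM in WT vehicle, 239 and 368 in WT ifetroban, 184 and 715 in KO vehicle, and 207, 295 and 371 in KO ifetroban. Both WT ifetroban values lay above WT vehicle, and the interaction was -1.59 ± 0.698, or -0.29 without KO vehicle replicate 2. It was -0.80 when reads were counted without regard to strand. The adult isoform Myh6 was at 0.27 ± 0.368. Sarcomere and Z-disc genes had a median of -0.02 with 15 of 31 positive, and cardiomyocyte markers one of 0.21 with 12 of 16 positive.

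**Figure D3:**
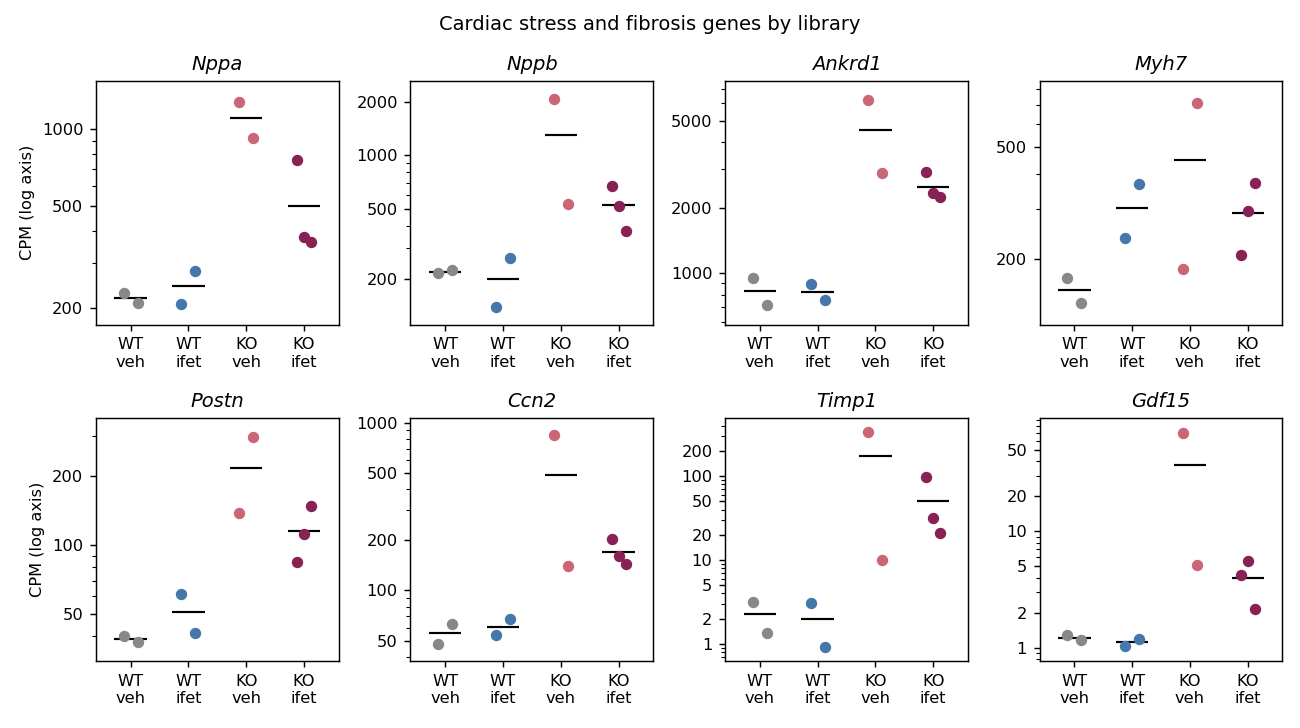
CPM on a log axis in each of the 9 libraries (points) with the group mean (line) for 8 genes of cardiac stress and fibrosis. KO vehicle replicate 1 is far above its group partner for Nppb, Ccn2, Timp1 and Gdf15, KO vehicle replicate 2 is the higher one for Myh7 and Postn, and the pair is closest for Nppa (1278 and 923 CPM).

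Genes of calcium handling and ion channels leaned the other way. Of 39 members, 37 had a positive interaction, where 53.7% of all genes did, with a median of 0.36 and 3 at an unadjusted p under 0.05. The list median for ifetroban was 0.40 in KO and 0.03 in WT. The positive sign held in all 21 alternative settings, between 0.16 (KO vehicle replicate 1 left out) and 0.61 (KO vehicle replicate 2 left out). Hcn4, the pacemaker channel, was at 10.3 and 12.6 CPM in WT vehicle, 10.4 and 12.6 in WT ifetroban, 3.95 and 6.27 in KO vehicle, and 7.81, 13.4 and 8.80 in KO ifetroban. The KO groups were apart and the WT groups overlapped, with 0.96 ± 0.422. Kcnv2, a modifying subunit of potassium channels, was at 1.08 ± 0.474 (0.65 without WT vehicle replicate 2), and Kcnq1, the slow delayed rectifier, at 0.50 ± 0.223. Atp2a2, which encodes the SERCA2 pump that refills the calcium store, was at 8874 and 11266 CPM in KO vehicle and at 12497, 15670 and 15733 in KO ifetroban. Its KO groups did not overlap, but the interaction of 0.43 ± 0.264 had an interval of -0.16 to 1.02. Ryr2, the calcium release channel, with a long transcript, was at 0.59 ± 0.523. It was at 0.03 without WT vehicle replicate 2, at 1.01 when the library labelled WT vehicle replicate 1 was left out, at 0.37 with offsets for transcript length and at 0.27 with the class term.

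Fatty acid oxidation genes had 36 of 40 positive with a median of 0.23, positive in all 21 settings (0.09 to 0.31). The median of the drug effect was 0.12 in KO and -0.07 in WT. Ucp3, a mitochondrial carrier induced by fatty acids, was at 33.8 and 25.2 CPM in WT vehicle, 46.5 and 37.0 in WT ifetroban, 7.72 and 16.0 in KO vehicle, and 32.8, 35.1 and 35.8 in KO ifetroban. Here ifetroban values were above vehicle in both genotypes without overlap, by 1.54 in KO and 0.50 in WT, and the interaction was 1.03 ± 0.409. It was 0.60 with KO vehicle replicate 1 left out and 1.67 with KO vehicle replicate 2 left out. Acot1, a fatty acyl-CoA thioesterase, was at 1.62 ± 0.641, and at 1.02 without KO ifetroban replicate 2. Angptl4, an inhibitor of lipoprotein lipase, went the other way at -2.64 ± 1.36, and was at 0.59 without KO vehicle replicate 1. Nuclear genes of oxidative phosphorylation had 58 of 66 positive with a median of only 0.14, and of -0.17 when the library labelled WT vehicle replicate 1 was left out. Glycolysis genes had a median of -0.02, with Pfkfb1 the single member at an unadjusted p under 0.05.

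In the pathway of the drug itself no member stood out by p, and the intervals were wide. Of 23 tested prostanoid enzymes and receptors, 16 were negative with a median of -0.11, and 0 had an unadjusted p under 0.05. Tbxa2r, the target of ifetroban, was at 2.93 and 3.55 CPM in WT vehicle, 3.61 and 1.94 in WT ifetroban, 4.42 and 5.32 in KO vehicle, and 3.69, 1.96 and 4.03 in KO ifetroban. The KO groups were apart and the WT groups overlapped, and the interaction was -0.37 ± 0.545 (interval -1.59 to 0.85). Leaving out WT ifetroban replicate 1 gave 0.14 for Tbxa2r, and leaving out WT ifetroban replicate 2 gave -0.75. Thromboxane synthase, Tbxas1, was at -0.06 ± 0.515. Prostacyclin synthase, Ptgis, was at 65.9 and 33.6 CPM in KO vehicle and 26.7, 18.0 and 27.8 in KO ifetroban, a non-overlapping pair with an interaction of -0.87 ± 0.487 that was -0.31 without KO vehicle replicate 1. The inducible cyclooxygenase, Ptgs2, was at -0.78 ± 1.47 and at 1.61 without that library. The lowest estimate of the list was that of Slco2a1, a prostaglandin transporter, at -1.10 ± 0.684, and this too was 0.07 without KO vehicle replicate 1.

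Downstream of the receptor, genes of G protein coupling and RhoA had a median of -0.01 with 15 of 31 positive. Rcan1, an inhibitor and target of calcineurin, had the smallest p of them at -1.79 ± 0.930. It was at 1049 CPM in KO vehicle replicate 1 and 131 in the other KO vehicle library, and its interaction was 0.37 without the former. Endothelin, angiotensin and adrenergic genes had a median of 0.04 with 12 of 21 positive, and Edn3 and Adra1b, described above, were the members at an unadjusted p under 0.05.

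The inflammatory lists turned with 1 library. Cytokines and chemokines had 26 of 31 negative with a median of -0.86, and a median of 0.89 without KO vehicle replicate 1. Acute-phase and IL-6 signalling genes went from -0.63 to 0.63, and macrophage and monocyte markers from -0.05 to 0.27, when that library was left out. Immediate early genes had a median of 0.01 with 14 of 26 positive, one of 1.22 without KO vehicle replicate 1 and one of -0.76 without the library labelled WT vehicle replicate 1. Lif, a cytokine of the IL-6 family, was at 19.2 and 0.715 CPM in KO vehicle and 1.17, 1.56 and 0.931 in KO ifetroban, so the first KO vehicle library stood alone, and the interaction was -2.56 with it and 1.23 without it. Spp1, which encodes osteopontin, had an interaction of -0.59 ± 2.16, the widest interval of the chosen disease genes (-5.44 to 4.26). Heat shock genes were at -0.21 and 0.06 without KO vehicle replicate 1, and genes of the unfolded protein and integrated stress response at 0.14 and -0.10 without the library labelled WT vehicle replicate 1. The MHC class II list had a median of -0.05, which was 0.50 when KO vehicle replicate 1 was left out and -0.41 when KO vehicle replicate 2 was. The complement (-0.05) and interferon (0.05) medians also took either sign when 1 library was left out, from -0.30 to 0.20 and from -0.10 to 0.32.

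**Figure D4:**
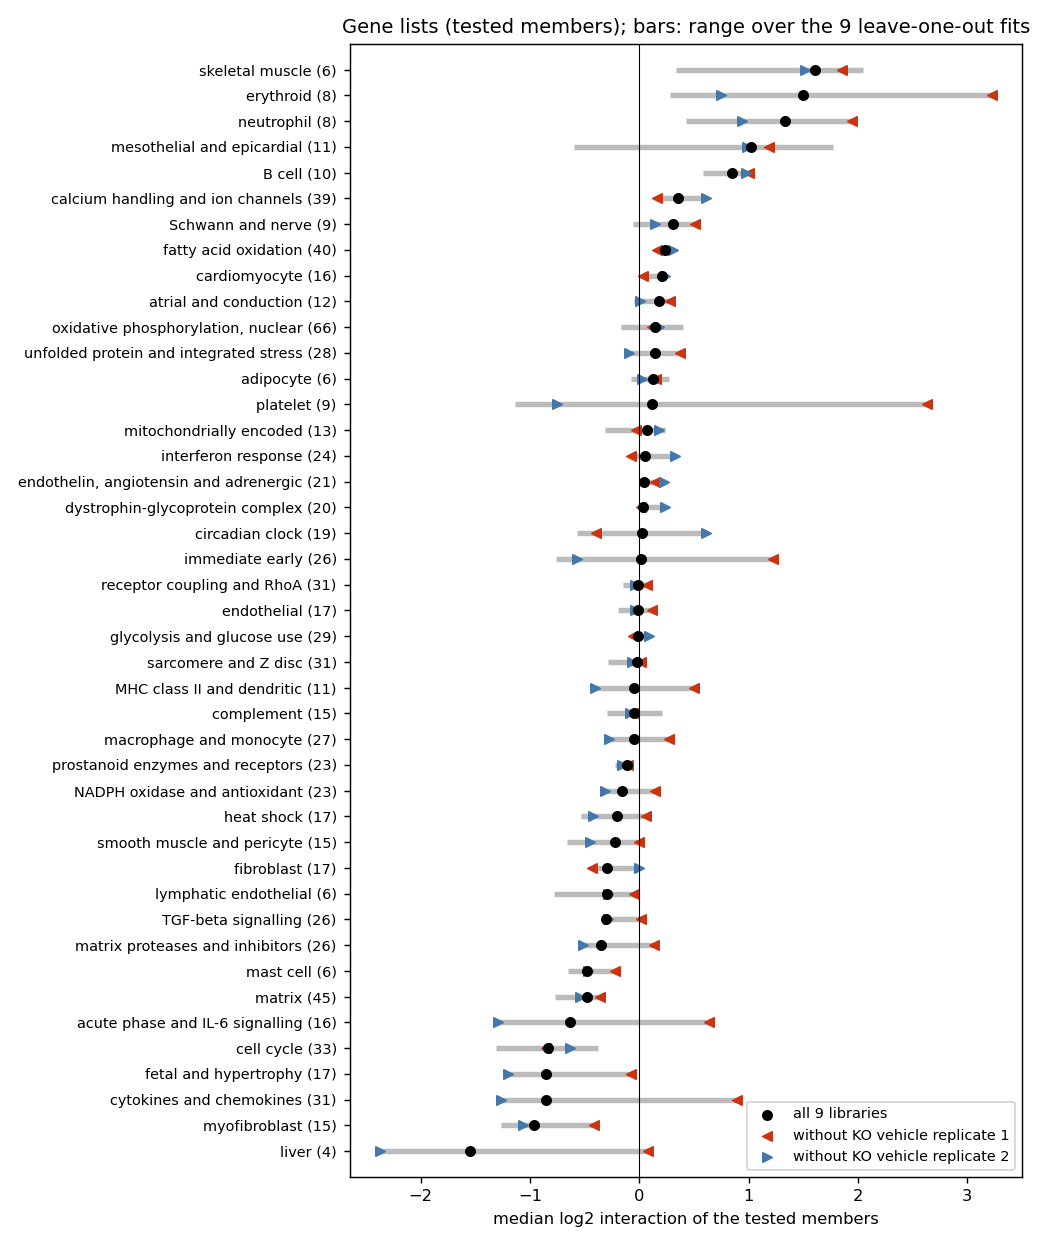
Median log2 interaction of the tested members of the gene lists, all but the lung, T and NK cell and chosen disease gene lists (number in brackets) with all 9 libraries (black), leaving out KO vehicle replicate 1 (red) or KO vehicle replicate 2 (blue), and the range over the 9 fits that each leave out 1 library (grey bar). Bars of the matrix, calcium handling, fatty acid oxidation and cell cycle lists stay on one side of 0, while those of the cytokine and immediate early lists cross it.

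Cell cycle genes had 29 of 33 negative with a median of -0.84, 5 of those at an unadjusted p under 0.05. The median for ifetroban was 0.49 in WT and -0.27 in KO, so the WT part was the larger. Ccnd1, the cyclin of cell cycle entry, was at 68.5 and 86.6 CPM in WT vehicle, 107 and 89.7 in WT ifetroban, 103 and 112 in KO vehicle, and 92.5, 76.6 and 81.2 in KO ifetroban. Treatments did not overlap in either genotype, in opposite directions, with -0.70 ± 0.249. Cdk1, the mitotic kinase, was at 0.411 and 0.618 CPM in WT vehicle and at 2.03 and 0.436 in WT ifetroban, so a single WT ifetroban library was high, and its value of -2.23 ± 0.899 was -0.73 without WT ifetroban replicate 1. The list median was -0.38 without that library and -1.31 without WT vehicle replicate 2, negative in all 21 settings.

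Markers of blood and neighbouring tissue also differed between libraries. Erythroid markers (8 of 8 positive, median 1.49) summed to 508 and 153 CPM in WT vehicle, 60.6 and 122 in WT ifetroban, 405 and 85.0 in KO vehicle, and 218, 83.7 and 199 in KO ifetroban, and leaving out the library labelled WT vehicle replicate 1 gave a median of 0.28, while leaving out KO vehicle replicate 1 gave 3.22. Liver markers (4 of 4 tested members negative, median -1.55) summed to 77.0 CPM in KO vehicle replicate 1 and to between 1.82 and 8.13 in the other 8 libraries, and their median was 0.08 without KO vehicle replicate 1 and -2.37 without the other KO vehicle library. Skeletal muscle markers (6 of 6 positive, median 1.60) were led by Atp2a1, at 8.42 CPM in KO ifetroban replicate 3 and between 0.257 and 1.35 in the rest, and the median was 0.34 without that library. Neutrophil markers (6 of 8 positive, median 1.33) summed to 250 CPM in KO vehicle replicate 1 and to between 4.52 and 85.3 elsewhere. Their median was 1.95 without that library, 0.73 without KO ifetroban replicate 1 and 0.42 when the library labelled WT vehicle replicate 1 was left out. The list median for ifetroban was -0.30 in KO and -1.71 in WT for neutrophil markers, and -0.59 and -2.06 for erythroid markers. These positive interactions therefore went with a larger fall in WT, not with a rise in KO. B cell markers (9 of 10 positive, median 0.85, 2 at an unadjusted p under 0.05) were low throughout, summing to between 10.7 and 19.1 CPM, and their median was positive in all 21 settings. The part of these markers in the interactions above was not tested.

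**Figure D5:**
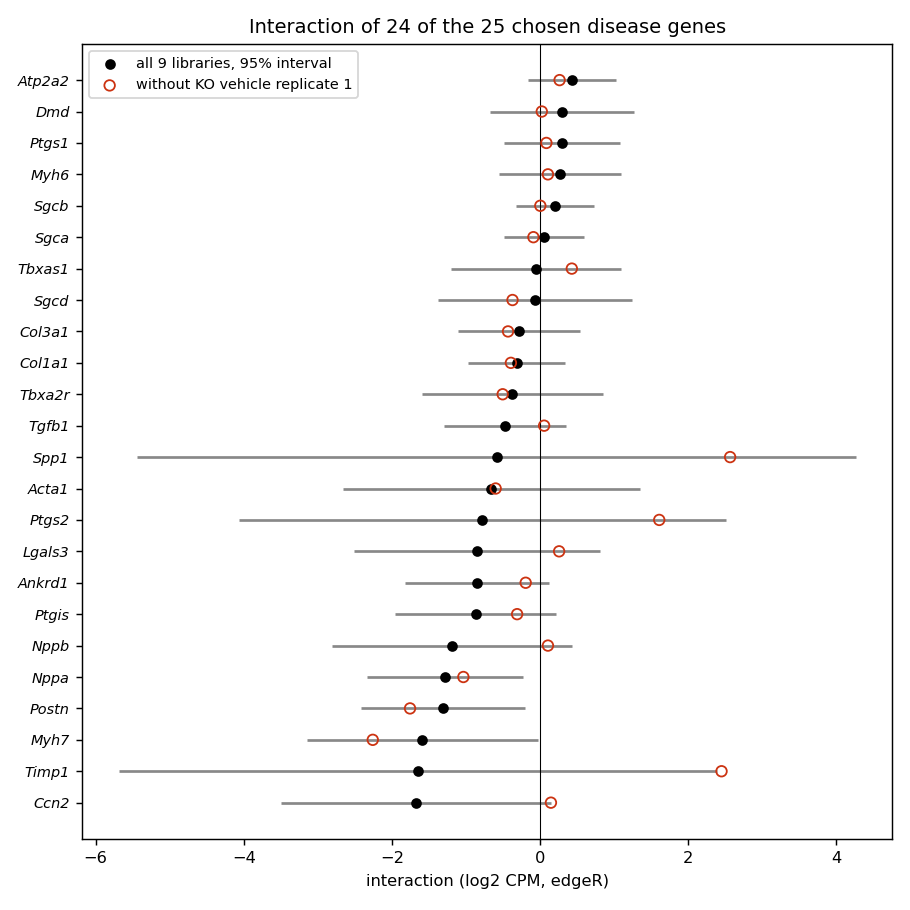
Interaction (log2) of 24 of the 25 chosen disease genes with all 9 libraries (black, 95% interval as a line) and without KO vehicle replicate 1 (red circle). Intervals of Nppa, Postn and Myh7 lie below 0 before adjustment over genes. The red circles of several genes lie on the other side of 0 from the black points, among them Timp1, Spp1, Ptgs2, Ccn2, Nppb and Tgfb1.

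Of the 25 chosen genes of heart failure, sarcoglycans and thromboxane signalling, 18 were negative with a median of -0.48, 0 were called and 3 (Nppa, Postn and Myh7) had an unadjusted p under 0.05. The sign was the same in all 21 settings for 10 of them and not for 15, and the median was 0.02 without KO vehicle replicate 1. The dystrophin-glycoprotein complex had a median of 0.04 with 11 of 20 positive. The sarcoglycans Sgca (0.05 ± 0.239) and Sgcb (0.20 ± 0.235) had 95% intervals within 1 log2 unit of 0, and Dmd, the dystrophin gene, was at 0.30 ± 0.435.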

How the data were processed

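Polyadenylated RNA of mouse left ventricle was sequenced in 9 libraries. The deposited files hold raw read counts per gene, made with STAR 2.5.2b and HTSeq on GRCm38, per the submitters' processing notes; each gives counts without regard to strand and for either strand, and the reverse strand was used, which held 14.5 times the counts of the other. Rows naming no gene (26.6 to 31.9% of the counts) were left out. Symbols and positions came from GENCODE M21 for 49412 of 49671 identifiers.

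Genes passing filterByExpr were scaled by TMM and fitted with edgeR 4.0.16 (quasi-likelihood test, two-sided, R 4.3.3) with 1 coefficient per group and no other term, with Benjamini-Hochberg adjustment over every tested gene. SEs are the absolute log2 value over the square root of F, and intervals are at 95%. CPM uses the TMM library size. DESeq2 1.42.0, limma 3.58.1 and the other alternatives are in the closing section. The fit was run on simulated counts with known changes put into KO ifetroban. These were drawn without length classes or outlying libraries, so the run does not test the fit on libraries that have them. Named were the 12 genes of smallest p in each direction among those averaging 1 or more in log2 CPM, 25 chosen disease genes, and up to 3 members of smallest p of each of 46 gene lists. The members and lists were chosen with earlier results of these data known. Any further gene named was picked with its values in view. The values of 1 chosen disease gene are not reported here, though it is in the counts and medians of its lists.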

Additional observations from a re-analysis of the deposited data

How the results depend on the processing

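The interaction called 0 genes under every alternative run, DESeq2 and limma-voom included, but one: with no filter on low counts 73 were called, 28 of them at an unadjusted p under 0.05 in the filtered fit. Genes at an unadjusted p under 0.05 numbered 789 with no filter, 134 with a stricter filter, 346 with the class term, 348 without both KO vehicle replicate 1 and WT vehicle replicate 1, and 123 (without KO ifetroban replicate 2) to 1746 (without KO vehicle replicate 2) when 1 library was left out, 373 without WT vehicle replicate 2; the main number was 211. Genes called for ifetroban in KO numbered 3 by DESeq2, 428 with no filter and 0 to 449 when 1 library was left out, 449 without KO vehicle replicate 2. In WT 34 were called with no filter, and 0 when any 1 library was left out. Of the 73 genes called with no filter, 72 were among those tested in the main fit. Without the filter, the spread common to genes had infinite weight (prior degrees of freedom, 4.65 in the main fit). The quasi-dispersion, the spread edgeR used, was 0.693 for Timp1 with no filter and 18.4 in the main fit. The cause of these shifts was not tested. With the replicate number as a block the interaction called 0 genes and 278 had an unadjusted p under 0.05; the labels give no shared animal or batch for a number. Deviations of same-numbered libraries correlated at 0.0011 to 0.0487 where WT ifetroban was one of the pair, and at 0.181 between the vehicle groups. They correlated at 0.478 and 0.326 between WT vehicle and KO ifetroban, and at 0.352 and 0.0408 between the KO groups. In a group of 2 libraries the deviations mirror each other, so these values cannot weigh same against different numbers. The pairs at 0.478, 0.326 and 0.352 each joined libraries of the same length class, though so did pairs at 0.0389 and 0.0236. The numbers were not taken as pairs.

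The 24 genes of smallest p, which the test chose, had the same sign in all 21 alternatives, as did 10 of the 25 chosen disease genes and 14 of the 46 list medians. With 2 libraries in 3 of the groups, leaving out 1 leaves a lone library that is assumed to vary like the rest. Depth limits genes of few reads such as Cthrc1, with 1 and 3 reads in WT vehicle.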
